A study of Homo sapiens with 12 samples.

Results

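The 36 genes described here make or handle sterols and fatty acids, and they were followed through 4 doses of colforsin daropate in HEYA8 cells. They were taken by name: 8 enzymes from acetyl-CoA to the isoprenoids, 12 from squalene to cholesterol, 5 genes of the SREBP regulators, 2 of sterol transport, 2 targets of the oxysterol receptor LXR and 7 of fatty acid synthesis. All 36 were found among the 21207 genes of the deposited table by matching Ensembl identifiers to symbols, and all passed the filter on low values. HEYA8 is an established human ovarian cancer line, and colforsin daropate is a water-soluble forskolin derivative, a class of compounds that activates adenylyl cyclase. The 4 groups, 0 µM (vehicle), 1 µM, 5 µM and 10 µM, were exposed for 48 h and differed, per the labels, in dose alone. Each group held 3 libraries of ribosome-depleted total RNA, which the series calls biological replicates. Their titles carry the number 6, 8 or 11 with the prefix p, and the number recurs at every dose. What it marks is not stated, and it is called the label number below.

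Cells make cholesterol from acetyl-CoA through mevalonate, farnesyl diphosphate and squalene, and most enzymes of this route are switched on together by the transcription factor SREBP2, the product of SREBF2. SREBP1, from SREBF1, acts mainly on fatty acid synthesis. Both precursors sit in the endoplasmic reticulum bound to SCAP, which carries them to the Golgi for cleavage when sterols are low, while INSIG1 and INSIG2 hold SCAP back when sterols are high. When oxysterols accumulate, LXR switches on export through ABCA1.

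Levels and differences are on the authors' variance-stabilised log2 scale, where 1 unit is close to a doubling for abundant genes, and differences carry the standard error of the model (limma, 3 libraries against 3). An adjusted p is Benjamini-Hochberg adjusted over the 17767 genes tested, two-sided, and a gene was called at an adjusted p under 0.05. Normalised counts recovered from these values are given as mean ± SD (n = 3). Values from 10 up were deposited in steps of 0.1, so an SD of 0 there means equal after rounding. Every comparison with vehicle uses the same 3 vehicle libraries, so the doses are not independent of each other. In bulk RNA, fewer expressing cells and less RNA per cell cannot be told apart.

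The stretches of promoter printed here show the letters upstream of the start of 8 members. They run 5′ to 3′ on the gene's own strand, from RefSeq (GRCh38.p14), and capitals mark the motifs searched other than GGGCGG, which is left in lower case. A RefSeq promoter was found for 32 of the 36 members. SREBF2 and ABCA1 are shown because their 250 bases upstream hold CACCCCAC, the core of the sterol regulatory element. The other 6 were chosen after their values were seen, as genes on which the results turn: 5 that fell and TM7SF2, which rose.
SREBF2, chr22:41832947-41833018, plus strand: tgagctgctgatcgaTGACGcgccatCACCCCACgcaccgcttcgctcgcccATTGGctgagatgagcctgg
ABCA1, chr9:104928282-104928398, minus strand: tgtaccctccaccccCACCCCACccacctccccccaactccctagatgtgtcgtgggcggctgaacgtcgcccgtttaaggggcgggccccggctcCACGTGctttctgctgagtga
INSIG1, chr7:155297655-155297727, plus strand: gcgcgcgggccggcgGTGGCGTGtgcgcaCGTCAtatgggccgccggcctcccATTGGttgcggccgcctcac
HMGCS1, chr5:43313548-43313582, minus strand: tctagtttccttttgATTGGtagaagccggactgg
MSMO1, chr4:165327469-165327612, plus strand: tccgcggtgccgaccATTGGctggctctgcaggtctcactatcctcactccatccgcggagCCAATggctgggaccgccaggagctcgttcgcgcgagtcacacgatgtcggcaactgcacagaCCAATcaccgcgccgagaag
STARD4, chr5:111512646-111512711, minus strand: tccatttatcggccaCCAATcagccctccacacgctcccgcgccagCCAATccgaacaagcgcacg
SCD, chr10:100346989-100347070, plus strand: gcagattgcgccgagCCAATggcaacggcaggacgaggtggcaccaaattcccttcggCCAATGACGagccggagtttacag
TM7SF2, chr11:65111783-65111817, plus strand: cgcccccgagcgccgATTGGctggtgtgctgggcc

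In SREBF2 the capitals are TGACG, CACCCCAC and CCAAT (written ATTGG on this strand), which begin 143, 132 and 106 bases before the start. INSIG1 holds GTGGCGTG, a match to the looser form CACNCCAC on the other strand, at 208 bases, TGACG (written CGTCA) at 194 and CCAAT at 170. ABCA1 holds CACCCCAC and the E-box CACGTG, and the capitals of HMGCS1, MSMO1, STARD4 and TM7SF2 are CCAAT alone. In SCD a CCAAT runs into a TGACG, so these letters overlap. All motifs were searched on both strands in the 250 bases upstream. The printed stretches stop before annotated transcribed bases, so some matches are not shown. These are CACGTG at 55 bases in INSIG1, CCAAT at 100 in HMGCS1 and at 34 in MSMO1, and CACNCCAC at 114 in SCD.

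CACCCCAC stood in 2 of the 32 member promoters (6.25%) and in 2.97% of the 27305 genes with a RefSeq promoter. These 27305, the comparison for every motif here, were taken whether or not they were expressed in these cells. The share among the genes tested was not taken, so an excess cannot be read as particular to the members. CCAAT, the letters bound by NF-Y, stood in 21 (65.6%) against 37% of the 27305. Members were sorted here by the fit on dose groups alone. CCAAT was in 11 of the 12 with a promoter that were lower at any dose. It was in 2 of the 5 that were higher and in 8 of the 15 not called. With the label number added as a block, LSS, NSDHL, HSD17B7, SC5D and DHCR7 of these 8 were lower, and MVD, MYLIP and ACLY were not called. Of the uncalled members without CCAAT, CYP51A1, NPC1 and FADS2 were lower with the block, INSIG2 and ABCA1 were higher, and PMVK and FADS1 were not called. GGGCGG, the Sp1 letters, stood in 30 (93.8%) against 46.2%. The cyclic AMP response element TGACGTCA stood in 1 member, FADS1 (3.12% against 2.03%), and its TGACG part in 12 (37.5% against 24.9%). CACGTG stood in 4 (12.5% against 7.73%). With 1 base left free, CACNCCAC, a form searched after the values were seen, stood in 7 (21.9% against 5.89%). By the fit on dose groups alone, 5 of these were lower at some dose and 0 higher. These matches describe letters only, and binding was not measured.

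Members that fell included HMGCS1 and SQLE of sterol synthesis, SREBF2, INSIG1 and SCD, the desaturase that makes oleate. Of the 20 sterol synthesis enzymes, 3, 7 and 9 were lower and 0, 1 and 3 higher at 1, 5 and 10 µM. Over all 36 members, at 1 µM 3 members were lower (HMGCS1, IDI1 and SQLE) and 0 higher, where 0.613% of all genes tested were lower and 1.18% higher. At an unadjusted p under 0.05 in limma the counts at 1 µM were 19 lower and 2 higher. At 5 µM 14 were lower and 1 higher, against 7.44% and 7.67% of all genes. At 10 µM 16 were lower and 5 higher, against 11.4% and 11.2%. The median difference of the members was -0.35, -0.37 and -0.43 at the 3 doses, and that of all genes was 0.00 at each.

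Treated and vehicle libraries did not overlap in 19, 24 and 24 of the 36 members, against 18.3%, 29.2% and 33.8% of all genes. Within label numbers, 28, 26 and 25 members were lower in 3 of 3 numbers, against 22.1%, 25.9% and 27.5% of all genes. With the label number as a block, the count at 1 µM was 16 lower and 2 higher (5.26% and 6.76% of all genes). At 5 µM it was 22 lower and 4 higher (15.3% of all genes each way), and at 10 µM 21 lower and 7 higher (19.7% and 18.7%). Without all libraries of number 6, 17, 21 and 21 members were lower at the 3 doses, against 5.48%, 13.8% and 17.2% of all genes. Without number 8 it was 0, 2 and 3 (0%, 0.315% and 1.42%), and without number 11 it was 0, 2 and 9 (0%, 0.523% and 2.78%). At an unadjusted p under 0.05 in limma, the 0 at 1 µM became 11 lower without number 8 and 12 without number 11. Of single libraries, leaving out vehicle library 6 gave 7 lower at 1 µM and leaving out 5 µM library 6 gave 5. The 5 higher at 10 µM became 3 without vehicle library 8, vehicle library 11, 10 µM library 6 or 10 µM library 11, and 2 without 10 µM library 8.

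**Figure D1:**
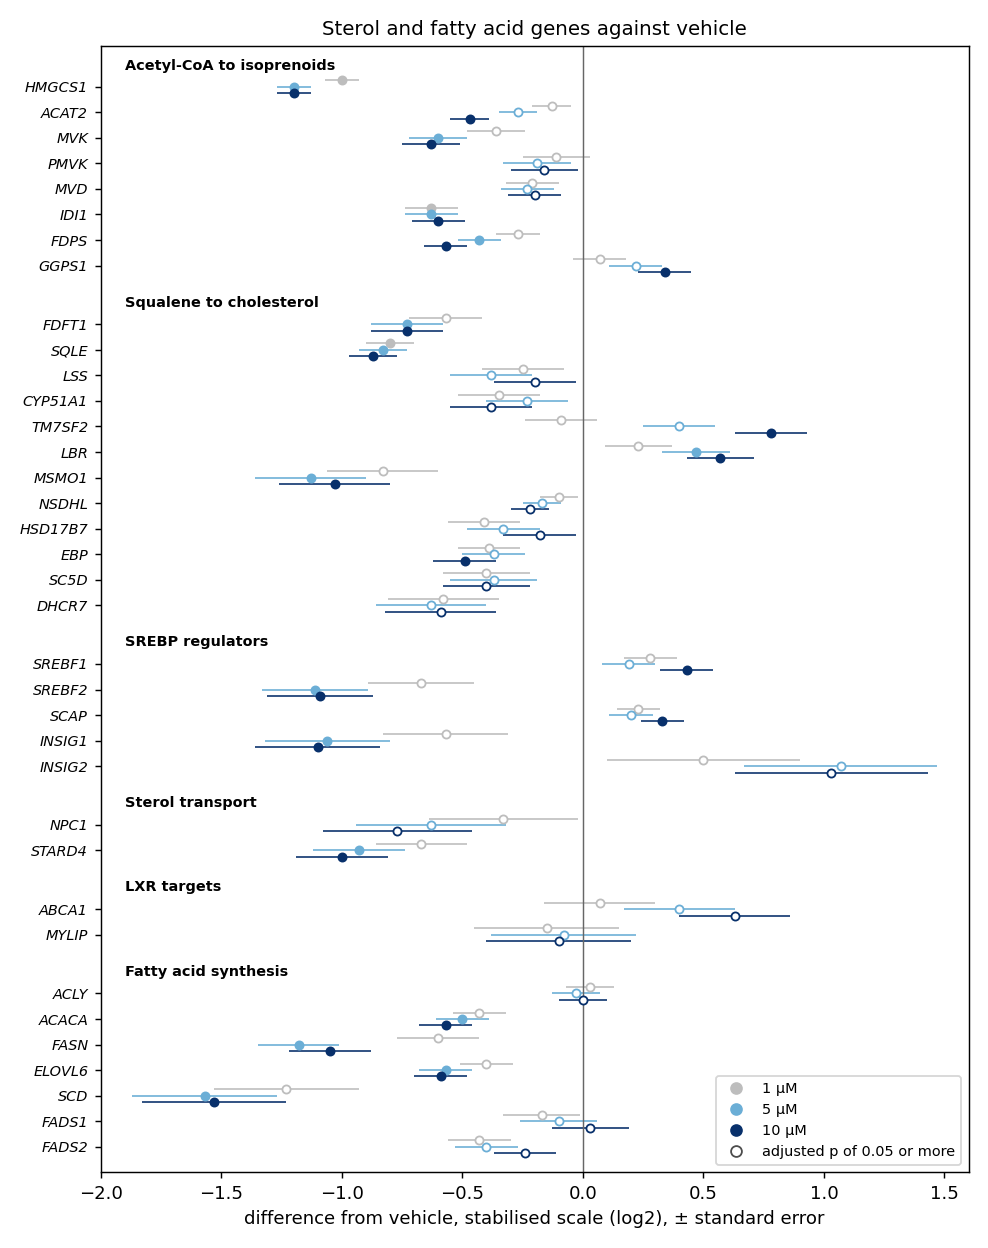
Difference of each of the 36 members from vehicle on the stabilised log2 scale, ± standard error of the fit (3 libraries against 3), in grey at 1 µM, light blue at 5 µM and dark blue at 10 µM; open points have an adjusted p of 0.05 or more. At 10 µM the 16 filled points on the left run from ACAT2 at -0.47 to SCD at -1.53, and the 5 on the right are GGPS1, TM7SF2, LBR, SREBF1 and SCAP.

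The enzymes from acetyl-CoA to the isoprenoids were led by HMGCS1, which condenses acetyl-CoA and acetoacetyl-CoA into the precursor of mevalonate. In label numbers 6, 8 and 11, in that order here and below, HMGCS1 (ENSG00000112972, chromosome 5, 43289395 to 43313512, minus strand, GENCODE 29 on GRCh38) stood at 11.5, 11.5 and 11.5 in vehicle, 10.5, 10.5 and 10.5 at 1 µM, 10.2, 10.3 and 10.4 at 5 µM and 10.2, 10.3 and 10.4 at 10 µM. The vehicle libraries were equal after rounding, and every treated library lay at least a full unit lower. HMGCS1 fell by 1.00 ± 0.07 at 1 µM (adjusted p = 6.72e-05) and by 1.20 ± 0.07 at 5 and at 10 µM (adjusted p = 3.17e-06 and 1.62e-06). Its recovered counts at 10 µM, 1205 ± 87.4, were 57.5% lower than the 2838 of vehicle.

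IDI1, which isomerises isopentenyl diphosphate, stood at 11, 11 and 10.9 in vehicle, 10.3, 10.4 and 10.3 at 1 µM, 10.1, 10.4 and 10.5 at 5 µM and 10.2, 10.4 and 10.5 at 10 µM. All treated libraries lay below all vehicle libraries, and the difference was -0.63 ± 0.11 at 1 µM (adjusted p = 0.0137), -0.63 ± 0.11 at 5 µM (0.0028) and -0.60 ± 0.11 at 10 µM (0.00233). The call at 1 µM was lost without vehicle library 8 (adjusted p = 0.0694) or 1 µM library 11 (0.0618). MVK, the kinase that phosphorylates mevalonate, stood at 8.85, 8.72 and 8.89 in vehicle, 8.58, 8.51 and 8.3 at 1 µM, 8.19, 8.26 and 8.21 at 5 µM and 7.96, 8.24 and 8.38 at 10 µM. MVK did not overlap between vehicle and any dose, and it fell at 5 µM (-0.60 ± 0.12, adjusted p = 0.00595) and 10 µM (-0.63 ± 0.12, 0.00311).

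FDPS, which makes farnesyl diphosphate, stood at 12.4, 12.4 and 12.3 in vehicle, 12.1, 12.2 and 12 at 1 µM, 11.9, 11.9 and 12 at 5 µM and 11.6, 11.9 and 11.9 at 10 µM. It was lower in every treated library and fell at 5 µM (-0.43 ± 0.09, adjusted p = 0.00822) and 10 µM (-0.57 ± 0.09, 0.00119). FDPS has 8 named pseudogenes in GENCODE 29, none of them in the table, so reads may be shared with those copies. The same holds for SCD (SCDP1), HSD17B7 (HSD17B7P1 and HSD17B7P2) and FADS2 (FADS2P1). ACAT2, which makes acetoacetyl-CoA in the cytosol, was called at 10 µM only, at -0.47 ± 0.08 (adjusted p = 0.00242). GGPS1, which takes farnesyl diphosphate towards protein prenylation, was the 1 member of this stretch called higher, at 0.34 ± 0.11 and 10 µM (adjusted p = 0.0495). That call passed narrowly and was lost on leaving out most single libraries, for example vehicle library 8, and GGPS1 shares exon positions with TBCE on its own strand. PMVK and MVD, the next kinase and the decarboxylase, were called at no dose (-0.16 and -0.20 at 10 µM, adjusted p = 0.479 and 0.239). Over the 8 genes, 2, 4 and 5 were lower and 0, 0 and 1 higher at the 3 doses. Of all genes tested, 0.613%, 7.44% and 11.4% were lower and 1.18%, 7.67% and 11.2% higher. The medians of the 8 genes were -0.24, -0.35 and -0.52.

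From squalene to cholesterol the largest falls were in MSMO1, SQLE and FDFT1. SQLE, the squalene epoxidase and an early rate-limiting step of this stretch, stood at 12.6, 12.7 and 12.6 in vehicle, 11.7, 11.9 and 11.9 at 1 µM, 11.6, 11.9 and 11.9 at 5 µM and 11.6, 11.8 and 11.9 at 10 µM. All 9 treated libraries lay below the 3 vehicle libraries. The difference was -0.80 ± 0.10, -0.83 ± 0.10 and -0.87 ± 0.10 at the 3 doses (adjusted p = 0.00335, 0.000488 and 0.000216), and counts at 10 µM were 45.4% lower, 3439 ± 364 against 6299 ± 257.

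FDFT1, the squalene synthase, stood at 12, 12.3 and 12.3 in vehicle, 11.5, 11.7 and 11.7 at 1 µM, 11.2, 11.5 and 11.7 at 5 µM and 11.2, 11.5 and 11.7 at 10 µM. MSMO1, which removes methyl groups from the sterol ring, stood at 11.8, 12.3 and 12.3 in vehicle, 10.9, 11.5 and 11.5 at 1 µM, 10.5, 11.2 and 11.3 at 5 µM and 10.9, 11.2 and 11.2 at 10 µM. In both genes number 6 was lowest at every dose, vehicle included, and vehicle and treated libraries did not overlap. FDFT1 fell by 0.73 ± 0.15 at 5 and at 10 µM (adjusted p = 0.00725 and 0.00475), and MSMO1 fell by 1.13 ± 0.23 at 5 µM (0.00664) and 1.03 ± 0.23 at 10 µM (0.0072). The p-values at 1 µM were 0.0839 for FDFT1 and 0.094 for MSMO1, and with the label number as a block 0.000302 and 7.87e-05. EBP, a sterol isomerase, was lower at 10 µM (-0.49 ± 0.13, adjusted p = 0.0166). The call for EBP was lost without vehicle library 8 (0.0555) or 10 µM library 6 (0.0512).

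The 2 members of this stretch that rose, TM7SF2 and LBR, encode proteins with the same sterol reductase activity. LBR is also the lamin B receptor of the inner nuclear membrane. TM7SF2 (ENSG00000149809, chromosome 11, 65111845 to 65116384, plus strand) stood at 8.08, 8.02 and 7.9 in vehicle, 8.07, 7.87 and 7.79 at 1 µM, 8.6, 8.18 and 8.42 at 5 µM and 9.1, 8.71 and 8.53 at 10 µM. It overlapped vehicle at 1 µM, and all 5 and 10 µM libraries lay above all vehicle libraries. TM7SF2 rose at 10 µM by 0.78 ± 0.15 (adjusted p = 0.00396), 1.93 times vehicle in counts (389 ± 92.2 against 201 ± 15.9). At 5 µM it was 0.40 ± 0.15 higher (0.106, and 0.0124 with the block). Its exons overlap those of VPS51 on the same strand, and how the authors assigned reads there was not given in the sources used here.

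LBR stood at 11.3, 10.8 and 10.8 in vehicle, 11.4, 11.1 and 11.1 at 1 µM, 11.5, 11.4 and 11.4 at 5 µM and 11.7, 11.4 and 11.5 at 10 µM. Number 6 was highest in vehicle, so the 1 µM group overlapped it, while the 5 and 10 µM groups lay above vehicle. LBR rose by 0.47 ± 0.14 at 5 µM (adjusted p = 0.0413) and 0.57 ± 0.14 at 10 µM (0.0122). The call at 10 µM was lost without vehicle library 8 (0.0545), vehicle library 11 (0.0518) or 10 µM library 6 (0.0509), and that at 5 µM without any of several libraries, with a p of up to 0.151 when vehicle library 8 was left out.

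LSS, CYP51A1, NSDHL, HSD17B7, SC5D and DHCR7, the other enzymes that close and trim the ring, were called at no dose. Their differences at 10 µM ran from -0.18 ± 0.15 (HSD17B7) to -0.59 ± 0.23 (DHCR7). With the block, DHCR7 and SC5D were lower at all 3 doses (adjusted p = 0.000189 and 0.00145 at 10 µM). HSD17B7 was then lower at 1 and 5 µM, LSS at 5 µM (0.0197), and CYP51A1 (0.0233) and NSDHL (0.024) at 10 µM. Over the 12 genes, 1, 3 and 4 were lower and 0, 1 and 2 higher, with medians of -0.40, -0.37 and -0.39. The shares of all genes were 0.613%, 7.44% and 11.4% lower and 1.18%, 7.67% and 11.2% higher. Per kilobase of exon, the level in vehicle was highest in MSMO1 (1553 normalised counts per kb) and SQLE (1463) and lowest in CYP51A1 (44.0). CYP51A1 shares exon positions on its own strand with AC000120.2 and AC000120.3, which are not among the deposited genes. How reads there were assigned was not given in the sources used here, so its low level may be understated. At 10 µM the levels of MSMO1 and SQLE were 743 and 799 per kb.

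Among the genes that regulate SREBP, SREBF2 and INSIG1 fell while SREBF1 and SCAP rose. SREBF2 (ENSG00000198911, chromosome 22, 41833079 to 41907308, plus strand), whose promoter holds the CACCCCAC printed above, stood at 11.3, 11.4 and 11.4 in vehicle, 10.5, 10.8 and 10.8 at 1 µM, 9.78, 10.4 and 10.6 at 5 µM and 9.83, 10.4 and 10.6 at 10 µM. The groups did not overlap at any dose, and number 6 was lowest throughout. SREBF2 fell by 1.11 ± 0.22 at 5 µM (adjusted p = 0.00561) and 1.09 ± 0.22 at 10 µM (0.00402). At 1 µM it was -0.67 ± 0.22 (0.149, and 0.0038 with the block). Counts at 10 µM, 1214 ± 328, were 53.0% lower than the 2584 ± 104 of vehicle.

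SREBF1, the paralogue tied to fatty acid genes, stood at 9.69, 9.89 and 9.94 in vehicle, 9.96, 10.3 and 10.1 at 1 µM, 10, 10.1 and 10 at 5 µM and 10.3, 10.4 and 10.1 at 10 µM. It was higher than vehicle in every treated library, and it rose at 10 µM by 0.43 ± 0.11 (adjusted p = 0.0155). The call was lost without 10 µM library 8 (0.0622). It was also lost without all libraries of number 6 (0.057), number 8 (0.166) or number 11 (0.0711). SCAP, the escort protein, stood at 11.2, 11.4 and 11.4 in vehicle, 11.4, 11.7 and 11.6 at 1 µM, 11.5, 11.5 and 11.6 at 5 µM and 11.6, 11.7 and 11.7 at 10 µM. Each treated library was above the vehicle of its number, though at 1 µM the groups met at 11.4. SCAP rose at 10 µM by 0.33 ± 0.09 (adjusted p = 0.0187), and the call was lost without vehicle library 6 (0.0503), 10 µM library 8 (0.058) or 10 µM library 11 (0.0564).

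INSIG1 (ENSG00000186480, chromosome 7, 155297776 to 155310235, plus strand) stood at 10.6, 10.6 and 10.6 in vehicle, 9.7, 10.2 and 10.2 at 1 µM, 9.02, 9.77 and 9.82 at 5 µM and 8.93, 9.63 and 9.93 at 10 µM. The vehicle libraries were equal after rounding, and every treated library was lower, number 6 by most. INSIG1 fell by 1.06 ± 0.26 at 5 µM (adjusted p = 0.0174) and 1.10 ± 0.26 at 10 µM (0.0101). The call at 5 µM was lost without vehicle library 8 (0.0533), vehicle library 11 (0.0522) or 5 µM library 6 (0.0625). INSIG2 (chromosome 2, 118088452 to 118110997, plus strand) stood at 11.2, 10.3 and 10.2 in vehicle, 11.9, 10.6 and 10.7 at 1 µM, 12.1, 11.4 and 11.4 at 5 µM and 12.3, 11.2 and 11.3 at 10 µM. Number 6 was about a unit above the others at 0, 1 and 10 µM, so its groups overlapped at 1 µM and met at 11.2 at 10 µM, although INSIG2 was higher than its own vehicle in 3 of 3 numbers. It was 1.07 ± 0.40 higher at 5 µM and 1.03 ± 0.40 at 10 µM (adjusted p = 0.098 and 0.0872), and with the block the p-values at 1, 5 and 10 µM were 0.006, 7.66e-06 and 5.9e-06. Over the 5 regulators 0, 2 and 2 were lower and 0, 0 and 2 higher. Beside them, 0.613%, 7.44% and 11.4% of all genes were lower and 1.18%, 7.67% and 11.2% higher. At 1 µM 2 regulators were lower and 2 higher at an unadjusted p under 0.05 in limma.

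**Figure D2:**
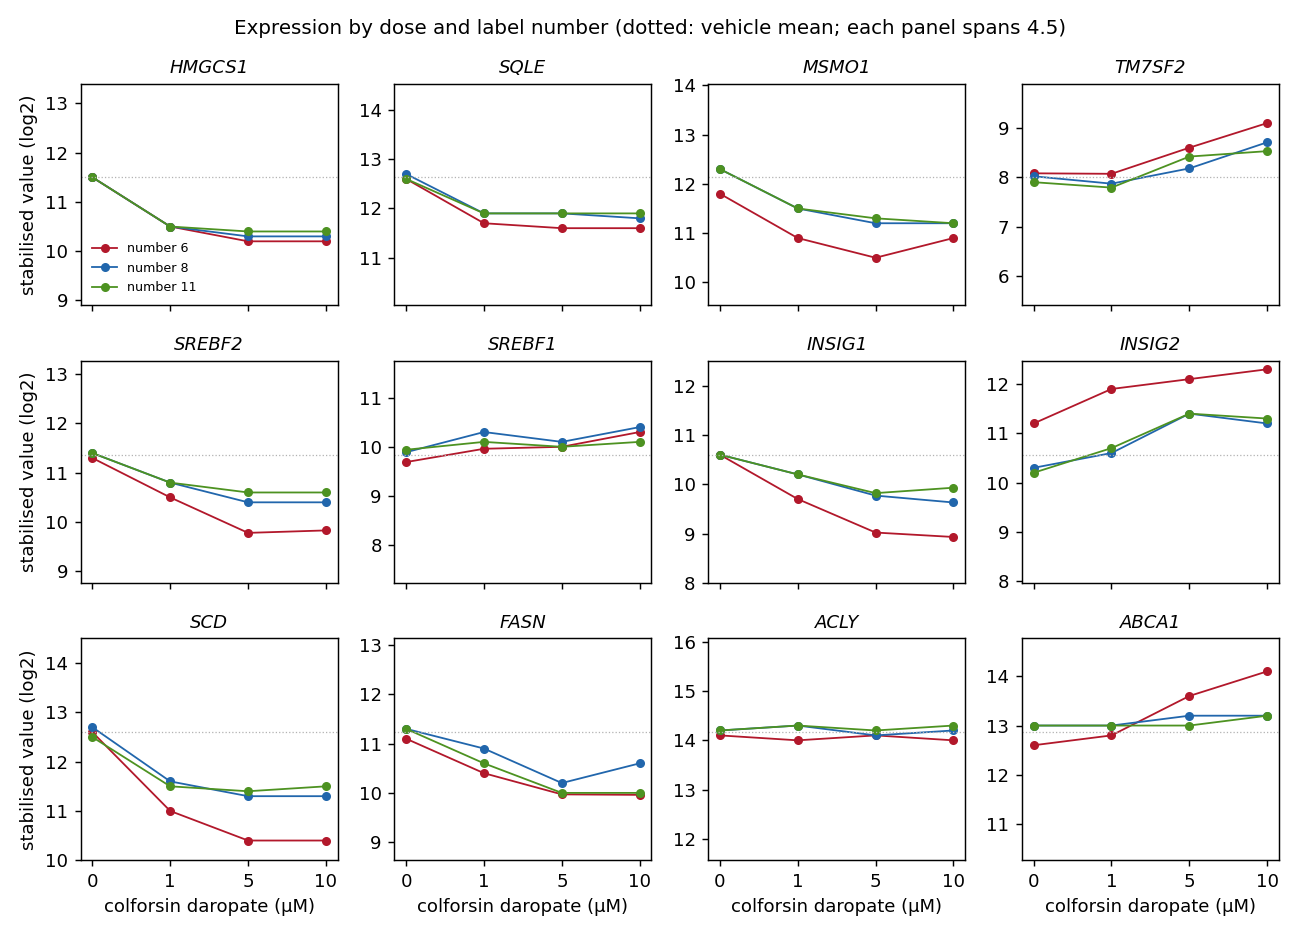
Stabilised log2 value of 12 members in each library (vertical axes all span 4.5 units) against dose in µM (horizontal axis, evenly spaced steps), with 1 line per label number (6 red, 8 blue, 11 green) and the vehicle mean dotted. HMGCS1 and SQLE are nearly flat after 1 µM, SREBF2 and INSIG1 are lower at 10 µM while SREBF1 and INSIG2 stand above their own vehicle, and the ABCA1 line of number 6 leaves the other 2.

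Sterol transport was measured through STARD4, which shuttles cholesterol between membranes, and NPC1, which exports it from lysosomes. STARD4 stood at 12.3, 11.5 and 11.5 in vehicle, 11.4, 10.9 and 11 at 1 µM, 10.9, 10.8 and 10.8 at 5 µM and 10.9, 10.7 and 10.7 at 10 µM. Vehicle library 6 was highest, and no treated library reached the vehicle range. STARD4 fell by 0.93 ± 0.19 at 5 µM (adjusted p = 0.00796) and 1.00 ± 0.19 at 10 µM (0.00363). NPC1 was -0.77 ± 0.31 at 10 µM without a call (0.0994), and with the block it was lower at 5 and 10 µM (0.00062 and 0.000106). Number 6 held the lowest NPC1 value at every dose, 12.6 in vehicle against 13.6 and 13.7.

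Of the LXR targets, ABCA1 (chromosome 9, 104781002 to 104928237, minus strand), the pump that exports cholesterol, stood at 12.6, 13 and 13 in vehicle, 12.8, 13 and 13 at 1 µM, 13.6, 13.2 and 13 at 5 µM and 14.1, 13.2 and 13.2 at 10 µM. The 10 µM group lay above vehicle, but by 1.50 in number 6 and by 0.20 in numbers 8 and 11. ABCA1 was 0.63 ± 0.23 higher at 10 µM (adjusted p = 0.0693, and 0.0309 with the block). Without number 6 the difference was 0.20 (0.0573). MYLIP, which marks lipoprotein receptors for breakdown, was -0.10 ± 0.30 (0.85).

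Fatty acid synthesis was split between the desaturase and chain-building enzymes, which fell, and ACLY and FADS1, which had values close to vehicle. SCD (ENSG00000099194, chromosome 10, 100347124 to 100364834, plus strand) stood at 12.6, 12.7 and 12.5 in vehicle, 11, 11.6 and 11.5 at 1 µM, 10.4, 11.3 and 11.4 at 5 µM and 10.4, 11.3 and 11.5 at 10 µM. All treated libraries lay below vehicle, with number 6 lowest at 1, 5 and 10 µM. SCD fell by 1.57 ± 0.30 at 5 µM (adjusted p = 0.00522) and 1.53 ± 0.30 at 10 µM (0.00387), and counts at 10 µM were 64.3% lower (2199 ± 806 against 6160 ± 431). At 1 µM it was already -1.23 ± 0.30 (0.0647, and 0.000824 with the block). At 10 µM the value fell by 2.20 in number 6, fell by 1.40 in number 8 and fell by 1.00 in number 11.

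FASN, the fatty acid synthase, stood at 11.1, 11.3 and 11.3 in vehicle, 10.4, 10.9 and 10.6 at 1 µM, 9.97, 10.2 and 10 at 5 µM and 9.96, 10.6 and 10 at 10 µM. The groups did not overlap, and FASN fell by 1.18 ± 0.17 at 5 µM (adjusted p = 0.00109) and 1.05 ± 0.17 at 10 µM (0.00128). ACACA, the acetyl-CoA carboxylase that feeds it, stood at 11.4, 11.6 and 11.6 in vehicle, 10.9, 11.2 and 11.2 at 1 µM, 10.9, 11.2 and 11 at 5 µM and 10.8, 11.1 and 11 at 10 µM. It was lower in every treated library, at -0.50 ± 0.11 (5 µM, adjusted p = 0.0134) and -0.57 ± 0.11 (10 µM, 0.00465). The call for ACACA at 5 µM was lost without vehicle library 8 (0.0543), vehicle library 11 (0.0537) or 5 µM library 6 (0.0551).

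ELOVL6, which lengthens palmitate, stood at 10.5, 10.7 and 10.8 in vehicle, 10.2, 10.3 and 10.3 at 1 µM, 9.88, 10.2 and 10.2 at 5 µM and 9.92, 10.1 and 10.2 at 10 µM. It did not overlap vehicle at any dose and fell by 0.57 ± 0.11 at 5 µM (adjusted p = 0.00576) and 0.59 ± 0.11 at 10 µM (0.00316). ACLY, which makes cytosolic acetyl-CoA from citrate and supplies both routes, was at 18342 ± 728 counts in vehicle and 18400 ± 1919 at 10 µM. Its difference was 0.00 ± 0.10 (adjusted p = 1), and FADS1, a desaturase of polyunsaturated fats, was at 0.03 ± 0.16 (0.905). FADS2, its partner, was -0.40 ± 0.13 at 5 µM (0.0519, and 0.00494 with the block) and -0.24 ± 0.13 at 10 µM (0.2). FADS1 and FADS2 overlap on opposite strands, and FADS2 shares exon positions with FEN1 on its own strand. Over the 7 genes 0, 4 and 4 were lower and 0 higher, with medians of -0.43, -0.50 and -0.57. Among all genes tested the shares were 0.613%, 7.44% and 11.4% lower and 1.18%, 7.67% and 11.2% higher. At 1 µM 5 of the 7 were lower and 0 higher at an unadjusted p under 0.05 in limma.

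Between doses few members were called without the block, and more were called with it from 1 to 5 and from 1 to 10 µM. From 5 to 10 µM 0 of the 36 were called, where 0% of all genes were called, and 0 with the block (0.00563%); at an unadjusted p under 0.05 in limma 1 was lower and 1 higher. From 1 to 5 µM it was 0 (0.31% of all genes), 3 with the block (5.19%), and 2 lower and 1 higher at an unadjusted p under 0.05. Between 1 and 10 µM ACAT2 (-0.33, adjusted p = 0.0462) and TM7SF2 (0.87, 0.0133) were called, against 4.71% of all genes, and 11 with the block (20.9%). Without 1 µM library 8 or 1 µM library 11 the 2 became 0, and without any 1 of 7 further libraries it became 1. Any difference among the 4 groups was found in 17 members (14.8% of all genes), and in 26 with the block (33.7%). It was 9 without vehicle library 8 and 10 without vehicle library 11. HMGCS1, IDI1 and SQLE were called at 3 doses, 12 members at 2, 6 at 1 and 15 at none. The matching split of all genes was not taken, and the doses share their vehicle libraries. This split can thus not be read as particular to the members.

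Further genes of the pathways had median differences near 0. Together, 107 tested genes of SREBP processing, LXR, sterol uptake and storage, other isoprenoid branches, fatty acid activation and elongation, glycerolipids and fatty acid oxidation had 0, 8 and 12 lower and 3, 14 and 17 higher at the 3 doses. Of all genes tested, 0.613%, 7.44% and 11.4% were lower and 1.18%, 7.67% and 11.2% higher. At 1 µM 9 were lower and 11 higher at an unadjusted p under 0.05 in limma. Their medians were 0.03, 0.00 and -0.01. No test compared these lists with the members.

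At 10 µM, where 11.4% of all genes were lower and 11.2% higher, 1 of 14 genes of SREBP processing was lower and 2 were higher. SEC24D, part of the coat that carries cargo out of the endoplasmic reticulum, rose by 0.70 ± 0.13 (adjusted p = 0.00276), the chaperone gene HSP90B1 rose by 0.47, and FBXW7, which tags nuclear SREBP for breakdown, fell by 0.43 (0.00891). Of 8 LXR genes 2 were higher, the exporter ABCG1 (1.27 ± 0.39, adjusted p = 0.0344) and the partner receptor RXRA (0.34, 0.0437). Of 17 genes of uptake, trafficking and storage 3 were lower and 2 higher. GRAMD1B, which moves cholesterol from the plasma membrane to the endoplasmic reticulum, rose by 0.90 ± 0.08 at 1 µM (adjusted p = 0.00029) and 1.93 ± 0.08 at 10 µM (1.48e-07). NPC2, the partner of NPC1, fell by 0.72 at 10 µM (0.00303), and TMEM97 fell by 0.55 (0.000579).

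Against the same 11.4% lower and 11.2% higher of all genes at 10 µM, 2 of 13 genes in other isoprenoid branches were lower, ACAT1 (-0.68, adjusted p = 0.000417), a mitochondrial thiolase, and TRIT1 (-0.38, 0.0379), which modifies tRNA. Fatty acid activation, elongation and NADPH genes had 4 lower and 5 higher of 22. Of the elongase genes, ELOVL7 fell by 1.00 (adjusted p = 0.0441) and ELOVL3 rose by 0.77 (0.00198), and ACSL5, an acyl-CoA synthetase, fell by 0.77 (3.72e-05). Of 14 glycerolipid genes PNPLA2, the first lipase of stored fat, rose by 0.74 (0.000223), and LPIN3 fell by 0.46 (0.00848). Of 19 oxidation genes 1 was lower (HADH, -0.74, adjusted p = 0.00519) and 5 higher, with DECR1 at 0.67 (0.000238) and the acylcarnitine carrier SLC25A20 at 0.51 (0.00111).

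**Figure D3:**
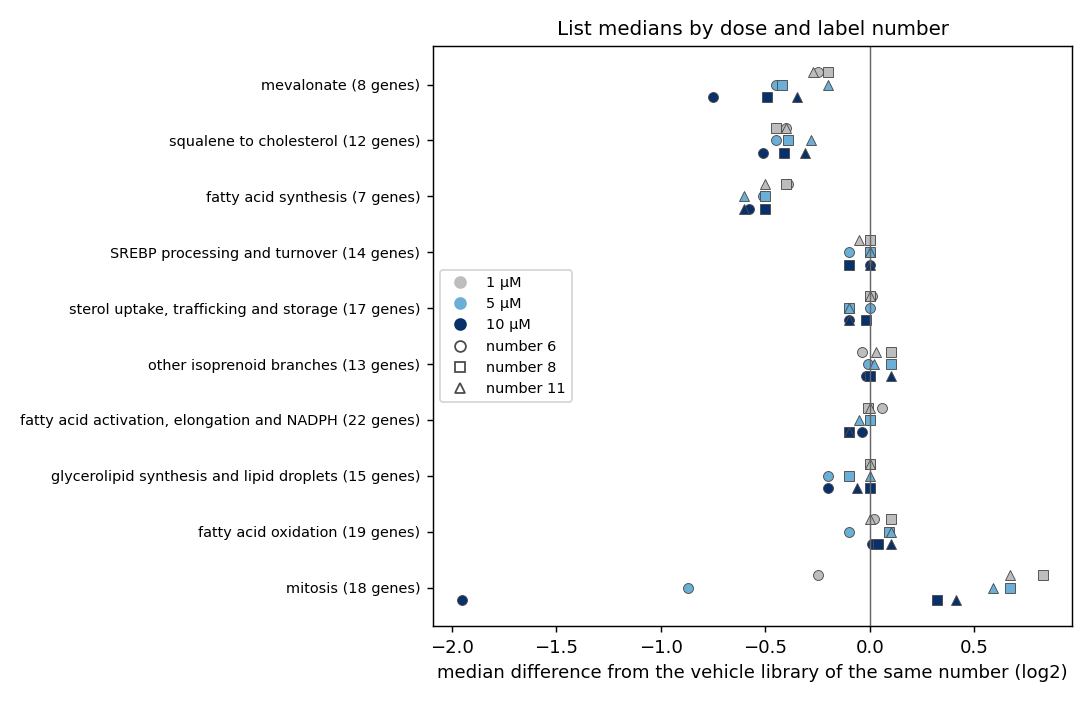
Median difference of 10 of the gene lists from the vehicle library of the same label number (horizontal axis, stabilised log2 scale), by dose (grey 1 µM, light blue 5 µM, dark blue 10 µM) and number (circle 6, square 8, triangle 11). The medians of the 3 synthesis lists lie below 0 in all numbers, those of the 6 further lipid lists drawn lie between -0.20 and 0.10, and the mitosis list is at -1.95 in number 6 and at 0.32 and 0.41 in numbers 8 and 11 at 10 µM.

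Libraries of label number 6 stood apart. A list of 18 mitosis genes had a median level of 11.4 in vehicle library 6 and of 9.27 and 8.88 in vehicle libraries 8 and 11. Its median difference at 10 µM was -1.95 in number 6 and 0.32 and 0.41 in the others, with 0 of 18 genes called against vehicle at any dose (0 also at an unadjusted p under 0.05 in limma). The median difference of the 36 members at 10 µM was -0.51, -0.45 and -0.35 in numbers 6, 8 and 11, and without number 6 the members' median over the fit was -0.34. Vehicle library 6 was also the shallowest, with 24.0 megareads assigned to genes, where the other 11 had 31.1 to 48.4. The line's epithelial keratins (KRT8 and KRT18) and PAX8, an ovarian carcinoma marker, were abundant (14.13, 14.33 and 12.70 in vehicle), as was the mesenchymal VIM (18.13). EPCAM was near the floor at 8.03 counts and KRT19 at 13.3. Of the markers of other cells, PTPRC, CD14, ALB and SYP had at most 5.56 counts in vehicle, while CDH5, an endothelial cadherin, had 7585 in number 6 and 1853 and 1725 in numbers 8 and 11. At 10 µM KRT8, KRT18, VIM and VWF were lower and PAX8, KRT7 and COL1A1 higher, and number 6 again stood highest for COL1A1, with 1294, 275 and 282 counts in numbers 6, 8 and 11 against 106, 13.6 and 28.6 in vehicle. The part of proliferation or cell state in the members' values was not tested.

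For 17 of the 36 members, exons overlap those of another gene in the table, on the opposite strand for 16 of them, in GENCODE 29. Among these are HMGCS1, IDI1, MVK, FDPS, SREBF1 and SREBF2. Whether the authors' counting used strand was not given in the sources used here, so reads of such neighbours cannot be told apart.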

How the data were processed

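Total RNA sequencing of 12 HEYA8 libraries was grouped by the dose in the labels (0, 1, 5 and 10 µM, 3 libraries each). The authors deposited 1 table of variance-stabilised log2 values, made with DESeq2 on the build GRCh38, per the submitters' processing notes. No aligner, counter or annotation is given in the sources used here. Of 21211 entries, 4 named no gene and were left out. Symbols were found for 21166 genes (99.8%) and GENCODE 29 positions for 20439. The values have a floor of 4.86 and 3 significant digits, and 30.9% lie at 10 or above. Differences of low genes are understated, and the scaling between libraries hides any shift in total RNA.

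The stabilising curve was inverted from its floor, and library depths were fitted to the 12 lowest steps. With them 99.8% of 29516 low values were whole reads within 0.0075 (55.1% with depths of the wrong libraries). The recovered normalised counts are descriptive. The test was limma 3.58.1 (R 4.3.3) on the deposited log2 values with 4 groups, a variance trend and Benjamini-Hochberg adjustment, on the 17767 genes that exceeded the floor by more than 1 in 3 or more libraries. It was tested on simulated data drawn without an effect of the label number, so that check does not cover the correlations by number described next.

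The same label number pairs the samples: deviations from group means over 8883 genes correlated at 0.353 to 0.845 in all 18 pairs of 1 number, and at -0.805 to 0.676 in 36 pairs of different numbers. This comes from the data, since the labels do not explain the number. The fit with the number as a block was an alternative, as were other filters, scalings, array weights, 2-group fits and leaving out libraries.

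The members and lists were chosen with earlier results of these data known. Library values are given for members called at 2 or more doses, the SREBP regulators and ABCA1, and per other list at most the 3 called genes with the largest difference at 10 µM are named. Promoters were to be printed for members with CACCCCAC.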

Additional observations from a re-analysis of the deposited data

How the results depend on the processing

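No called difference changed direction under any setting run. With the replicate block, all calls of the fit without it remained (3 of 3, 15 of 15 and 21 of 21 at 1, 5 and 10 µM), and the block changed calls only by adding them. It gave 16 lower and 2 higher at 1 µM, 22 and 4 at 5 µM, 3 between 1 and 5 µM, 11 between 1 and 10 µM and 26 for any difference. The block without number 6 gave 16 lower and 3 higher at 1 µM, 2 higher at 5 µM, 4 between 1 and 5 µM and 8 between 1 and 10 µM. Array weights gave 21 lower and 3 higher at 1 µM, 24 and 3 at 5 µM, 5 between 1 and 5 µM, 5 between 1 and 10 µM and 29 for any difference. Quantile normalisation gave 5 lower at 1 µM, 0 higher at 5 µM and 1 between 1 and 10 µM, where no filter and a median shift also gave 1. Fits of 2 groups gave 0 higher at 5 µM, 3 higher at 10 µM and 0 between 1 and 10 µM, with fewer libraries for the spread. Leaving out a library or a label number gave 0 to 17 lower and 0 to 3 higher at 1 µM, 2 to 21 and 0 to 2 at 5 µM, 3 to 21 and 0 to 5 at 10 µM. Between doses it gave 0 to 4 from 1 to 5 µM, 0 from 5 to 10 µM and 0 to 7 from 1 to 10 µM, and 1 to 24 for any difference. Leaving out 1 library alone gave 2 to 7 lower at 1 µM, 12 to 17 lower and 0 to 2 higher at 5 µM, 15 to 20 lower and 2 to 5 higher at 10 µM, 0 to 2 from 1 to 10 µM and 9 to 18 for any difference. Shares of all genes called are given above for the block and, for lower genes only, for leaving out a label number. For the other settings no share is given. Their counts of members can thus not be set against all genes, since a setting may call more genes everywhere. The cause of these shifts was not tested. Groups of 3 libraries and rounding to 0.1 at high values limit what small differences can show.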
